A study of Mus musculus with 18 samples.

Results

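The fatty acid desaturases and elongases of the mouse were followed as 10 genes, the 4 desaturases Scd1, Scd2, Fads1 and Fads2 and the 6 elongases Elovl1, Elovl2, Elovl3, Elovl5, Elovl6 and Elovl7, chosen by their symbols in 2 tables of gene expression. All 10 were among the 16533 genes of the liver table, and 8 were among the 15579 genes of the AML12 table, where Elovl2 and Elovl3 were not analysed here. The livers came from 6 male db/db mice of strain B6.Cg-dock7m Leprdb/++/J, all homozygous for a leptin receptor mutation, whose age is not given in the sources used here. Of these, 3 mice were given rMSA, a mouse serum albumin made by recombinant means, into a vein at 1.5 mg per g, in 3 injections 3 weeks apart within a 9-week treatment, and the other 3 had saline. AML12 is a mouse hepatocyte line, labelled WT and maintained with insulin, transferrin, selenium and dexamethasone. Its cells went without serum overnight and then spent 24 h in 1 of 4 conditions, which were vehicle, insulin at 10 nM, rMSA at 600 µM, and both agents, with 3 libraries each. No wild-type mouse liver was in the liver table, and it is not stated whether the 3 libraries of a cell group came from separate cultures, so their p-values measure only the spread between libraries, which may be technical.

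Desaturases put a double bond into the acyl chain of a fatty acyl-CoA. SCD enzymes do so at carbon 9 of saturated chains and make the oleate and palmitoleate that liver stores in triglyceride, whereas FADS2 (delta-6) and FADS1 (delta-5) act in sequence on polyunsaturated chains. ELOVL enzymes carry out the first, condensing step that adds carbons to a chain, and each prefers certain chain lengths. In liver, insulin acting through SREBP-1c, liver X receptors and carbohydrate acting through ChREBP are known to raise many of these genes.

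Values were TPM, the share of transcripts of a gene scaled by length and to the same total in every library, so levels of different genes can be compared within a table. TPM holds no read counts, so the depth and the counting error of a library are unknown. Differences were tested with limma on log2(TPM + 1) for genes whose mean reached 1 TPM. Here "rose" and "fell" stand for an adjusted p under 0.05, and a log2 fold change on this scale understates the change of a gene near 1 TPM. The 2 tables were normalized separately, so no level was tested between them. In the liver the summed TPM of 10 hepatocyte markers was 93896.2 to 114211.4. In the AML12 libraries, 9 of these markers had a row (all but Apoa2) and summed to only 168.6 to 433.8 TPM, while 4 of 6 cholangiocyte markers summed to 1679.8 to 2254.4 TPM, with the keratin Krt19 as the highest. Insulin libraries 1 and 2 of AML12 stood apart from the other 10 AML12 libraries. Ribosomal protein genes took 33.7% and 36.3% of their TPM against 22.3% to 28.2% elsewhere, and their median tested gene was at 14.6 and 11.2 TPM against 16.2 to 22.6 TPM. The members' results that rest on them are given with and without them.

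In the db/db liver, rMSA went with higher levels of every desaturase. All 4 rose, by between 2.94 and 17.82 times in mean TPM, and in each the 3 rMSA livers lay above the 3 saline livers. Over all members, 8 of the 9 tested rose and none fell, and all 8 were past 2-fold. Of the 11398 genes tested in the liver, 21.8% rose, 8.38% fell and 8.61% passed the test with at least a 2-fold change in either direction. The median log2 fold change was 1.57 over the 9 members and 0.12 over all genes tested.

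Scd1, the main stearoyl-CoA desaturase of mouse liver, was the most abundant member in every liver library. It measured 1032, 450.4 and 720.5 TPM in the saline livers and 14574, 11833 and 12838 TPM in the rMSA livers. The lowest rMSA liver was thus far above the highest saline liver, and the saline mice differed among themselves more, in proportion, than the rMSA mice. The means were 734.2 ± 290.9 and 13081.9 ± 1386.5 TPM (SD, n = 3 each), with a log2 fold change of 4.23 ± 0.27 (SE, adjusted p = 2.86e-05 by limma).

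Scd2, the isoform known from brain and skin and from neonatal liver, was low. It measured 3.61, 2.21 and 2.62 TPM with saline and 10.17, 9.45 and 11.08 TPM with rMSA. The groups were well apart, with a log2 fold change of 1.57 ± 0.17 (SE, adjusted p = 0.000337 by limma). The similar coding parts of the Scd genes may share reads, and how such reads were counted is not stated, so the level of Scd2 beside so much Scd1 is uncertain. The ratio of Scd1 to Scd2 was 203.8 to 285.8 in the saline livers and 1158.7 to 1433.0 in the rMSA livers. The ratio ranges did not overlap (exact two-sided permutation p = 0.1, the smallest that 3 against 3 can give).

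Fads2, the delta-6 desaturase that opens the path to arachidonic and docosahexaenoic acid, measured 289.9, 236.0 and 256.5 TPM with saline and 803.8, 967.1 and 1047 TPM with rMSA. Fads1, the delta-5 desaturase of the same path, measured 118.0, 118.3 and 134.8 TPM with saline and 313.4, 379.0 and 398.8 TPM with rMSA. Neither gene had overlapping groups, and within each group the mice were close. The log2 fold change was 1.84 ± 0.13 for Fads2 (SE, adjusted p = 4.59e-05 by limma) and 1.54 ± 0.12 for Fads1 (SE, adjusted p = 7.02e-05 by limma). Fads1 stood at 0.407 to 0.525 of the Fads2 level in the saline livers and at 0.381 to 0.392 in the rMSA livers, with no overlap (exact two-sided permutation p = 0.1, the smallest possible).

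**Figure D1:**
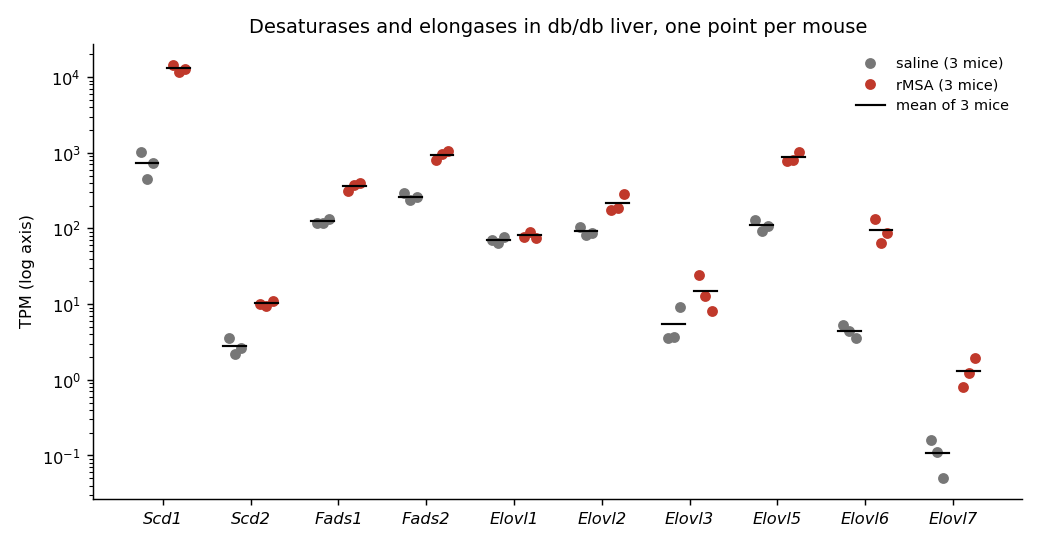
TPM of the 10 members in db/db liver on a log axis, with 1 point for each mouse (grey, saline; red, rMSA) and a line at the mean of 3 mice. The rMSA points lie above all saline points for Scd1, Scd2, Fads1, Fads2, Elovl2, Elovl5, Elovl6 and Elovl7, and the groups overlap for Elovl1 and Elovl3.

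Among the elongases in the liver, 4 of the 5 tested rose and Elovl1 did not pass. Elovl6, which extends palmitate to stearate and so feeds SCD1, had the largest proportional difference of the tested members, at 21.68 times in mean TPM. It measured 5.31, 4.37 and 3.54 TPM in the saline livers and 134.4, 64.8 and 87.4 TPM in the rMSA livers. The first rMSA liver was the highest, and all 3 were far above saline. The log2 fold change was 4.11 ± 0.25 (SE, adjusted p = 2.56e-05 by limma).

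Elovl5, which extends polyunsaturated chains made by FADS2, measured 127.3, 92.5 and 108.4 TPM with saline and 784.0, 813.2 and 1017 TPM with rMSA. Its groups were far apart, and with rMSA it was close to Fads2 in level (871.3 ± 126.8 against 939.3 ± 124.0 TPM, SD, n = 3 each). Its log2 fold change was 2.98 ± 0.15 (SE, adjusted p = 9.82e-06 by limma). Elovl2, which acts on the longest polyunsaturated chains on the way to docosahexaenoic acid, measured 104.6, 81.5 and 87.5 TPM with saline and 176.0, 185.9 and 288.1 TPM with rMSA. The third rMSA liver was the highest, and the lowest rMSA liver was still above saline. The log2 fold change was 1.21 ± 0.19 (SE, adjusted p = 0.00225 by limma).

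Elovl3, an elongase of saturated and monounsaturated very long chains known from brown fat and skin, measured 3.59, 3.63 and 9.18 TPM with saline and 24.12, 12.69 and 8.08 TPM with rMSA. The third saline liver was above the third rMSA liver, so the groups overlapped. Its log2 fold change of 1.28 ± 0.41 (SE, adjusted p = 0.0475 by limma) passed narrowly, and in 12 of 16 alternatives it did not pass, with the adjusted p at 0.00876 to 0.146 over all 16. With the replicate number as a block the adjusted p was 0.112. Elovl1, which extends saturated and monounsaturated chains to very long ones in most tissues, measured 69.8, 64.1 and 76.1 TPM with saline and 78.0, 88.6 and 75.3 TPM with rMSA. Its groups overlapped, with a log2 fold change of 0.20 ± 0.11 (SE, adjusted p = 0.209 by limma). Elovl7, another very long chain elongase, was below the filter with a mean under 1 TPM. It measured 0.16, 0.11 and 0.05 TPM with saline and 0.81, 1.22 and 1.93 TPM with rMSA, without overlap. When genes of every level were tested, its log2 fold change was 1.04 ± 0.18 (SE, adjusted p = 0.015 by limma).

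Without overlap between groups were 7 of the 9 tested members, all of them higher with rMSA, whereas 32.7% of all genes tested in the liver had every rMSA library above every saline library. The order of levels also differed between groups. In the saline livers the means fell from Scd1 through Fads2, Fads1, Elovl5, Elovl2 and Elovl1 to Elovl3, Elovl6, Scd2 and Elovl7. Neighbours in this order overlapped for Fads1 and Elovl5, Elovl5 and Elovl2, Elovl3 and Elovl6, and Elovl6 and Scd2. In the rMSA livers Elovl5 came next after Scd1 and Fads2, overlapping with Fads2, and Elovl6 stood above Elovl1 in mean although these overlapped. The 10 members together took 0.105% to 0.175% of the TPM of a saline liver and 1.44% to 1.69% of an rMSA liver, and Scd1 alone made up 42.8% to 58.8% of that sum with saline and 81.4% to 86.2% with rMSA.

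Among the members, only the Fads genes and the Scd genes form close pairs in the genome. In RefSeq GRCm38.p6, Fads2 (chr19:10062765-10101503) and Fads1 (chr19:10182877-10196874) are 81.4 kb apart, Scd2 (chr19:44293676-44306864) and Scd1 (chr19:44394450-44407709) are 87.6 kb apart, and Elovl3 (chr19:46131897-46135694) follows on the same chromosome. Elovl2 (chr13:41182382-41220403) and Elovl7 (chr13:108214326-108287109) share chromosome 13 at a distance. Elovl6 (chr3:129532386-129638495), Elovl1 (chr4:118426874-118432953) and Elovl5 (chr9:77917365-77984519) stand alone. The Scd neighbours were not alike in level, since Scd1 exceeded Scd2 in each liver library and Scd2 exceeded Scd1 in each AML12 library. By GENCODE vM21, exons of the antisense gene Gm35986 overlap 34 exon bases of Elovl6, those of Cdc20 overlap 53 of Elovl1 and those of Pitx3 overlap 10 of Elovl3. The strand setting of the counting is not stated, so reads there cannot be told apart.

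Sequence just before the start was given by RefSeq for 6 of the 10 members (8 start sites), and is shown for 3 elongases that rose together in the liver, so that their letters can be compared. Capitals mark a CCAAT box (CCAAT), an E-box (CACGTG) or a GC box (GGGCGG) on either strand, and each sequence stops before the first coding-gene exon of GENCODE vM21. The places are chr3:129532136-129532354 (+ strand) for Elovl6, chr9:77917115-77917363 (+ strand) for Elovl5 and chr13:41220406-41220653 (- strand) for Elovl2, in GRCm38.p6.
Elovl6: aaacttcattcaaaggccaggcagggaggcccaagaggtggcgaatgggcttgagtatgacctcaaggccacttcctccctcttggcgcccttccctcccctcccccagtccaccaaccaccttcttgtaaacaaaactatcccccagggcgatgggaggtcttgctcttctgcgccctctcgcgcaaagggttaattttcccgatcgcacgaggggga
Elovl5: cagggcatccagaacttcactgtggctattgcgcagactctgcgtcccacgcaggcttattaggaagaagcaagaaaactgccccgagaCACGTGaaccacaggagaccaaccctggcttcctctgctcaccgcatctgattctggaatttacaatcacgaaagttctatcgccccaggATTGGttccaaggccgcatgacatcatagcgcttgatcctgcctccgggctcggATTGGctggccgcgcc
Elovl2: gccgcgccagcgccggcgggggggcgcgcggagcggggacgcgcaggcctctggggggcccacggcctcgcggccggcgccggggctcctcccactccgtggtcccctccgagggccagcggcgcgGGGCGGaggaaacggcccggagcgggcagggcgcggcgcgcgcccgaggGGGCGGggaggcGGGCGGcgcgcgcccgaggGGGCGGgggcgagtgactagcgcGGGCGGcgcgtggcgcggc
Elovl6 held none of the 3 motifs. Elovl5 held 2 CCAAT boxes and 1 E-box. The Elovl2 stretch shown held 5 GC boxes and 87.1% G and C, against 58.0% for Elovl6 and 55.8% for Elovl5. The other Elovl2 start site held none of the 3 motifs. In windows of 250 bases before the start, 33.8% of 32851 promoters held CCAAT, 6.02% held CACGTG and 32.7% held GGGCGG. Of the 8 member windows, 2 held CCAAT, 1 held CACGTG and 5 held GGGCGG. The sterol regulatory element TCACNCCAC, held by 1.05% of all promoters, was in 0 of the 8 member windows on either strand. At so low a share, 0 of 8 was likely beforehand, so it tells nothing about the members. No window was available for Scd1, Scd2, Fads1 or Elovl3. A match of letters is a description of the sequence alone.

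Some genes that work with the members also rose in the rMSA livers, where 21.8% of all genes rose and 8.38% fell. Of the 6 partners of the elongation cycle, 4 rose and 0 fell, with a median log2 fold change of 0.44. Hsd17b12, the ketoacyl-CoA reductase of the cycle, went from 80.55 ± 5.83 to 225.0 ± 8.7 TPM (mean ± SD, n = 3 each; 1.47 ± 0.10 SE on the log2 scale, adjusted p = 3.11e-05 by limma). Tecr, the reductase of the last step, had a log2 fold change of 0.71 ± 0.10 (SE, adjusted p = 0.00119 by limma), and the dehydratases Hacd3 and Hacd2 had 0.45 ± 0.12 and 0.41 ± 0.11 (SE, adjusted p = 0.0224 and 0.0235 by limma). Of the 5 tested genes that carry electrons to desaturases through cytochrome b5, 2 rose. These were the reductase Cyb5r3 (1.32 ± 0.11 SE, adjusted p = 9.16e-05 by limma) and Cyb5b (1.15 ± 0.12 SE, adjusted p = 0.000276 by limma), while Cyb5r4 and Cyb5r1 had log2 fold changes of 0.26 and 0.18 and did not pass. Of the 3 tested further desaturases, Fads3 rose from 2.11 ± 0.42 to 10.08 ± 2.55 TPM (mean ± SD, n = 3 each; 1.81 ± 0.21 SE on the log2 scale, adjusted p = 0.000468 by limma), and Fads6 and the sphingolipid desaturase Degs1 did not pass.

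Of 13 genes listed as regulators of lipid synthesis, not all of them transcription factors, 7 rose and 1 fell in the liver. There, 21.8% of all genes rose and 8.38% fell. Their median log2 fold change was 0.48. Srebf1, which encodes SREBP-1, went from 54.13 ± 12.58 to 246.3 ± 34.6 TPM (mean ± SD, n = 3 each; 2.18 ± 0.19 SE on the log2 scale, adjusted p = 0.000102 by limma). Thrsp and Mid1ip1, a pair of related proteins that act on acetyl-CoA carboxylase, had log2 fold changes of 2.31 ± 0.21 and 1.79 ± 0.21 (SE, adjusted p = 0.000136 and 0.000539 by limma), and Insig1, which holds SREBP precursors in the endoplasmic reticulum, had 1.61 ± 0.14 (SE, adjusted p = 0.000127 by limma). The gene that fell was Nr1h2, liver X receptor beta (log2 fold change -0.33, adjusted p = 0.0382 by limma), named after its value was seen. Of 12 genes of acyl-CoA activation and transfer, 6 rose and 1 fell. Gpam, which starts glycerolipid synthesis, led with 2.58 ± 0.09 (SE, adjusted p = 2.5e-06 by limma), followed by the acyl-CoA synthetase Acsl5 (1.54 ± 0.14 SE, adjusted p = 0.000162 by limma), the sterol acyltransferase Soat2 (1.2 ± 0.16 SE, adjusted p = 0.00108 by limma) and the lysophospholipid acyltransferase Lpcat3 (0.77 ± 0.11 SE, adjusted p = 0.00131 by limma). The gene that fell was Dgat1, a triglyceride synthase (log2 fold change -0.60, adjusted p = 0.00361 by limma), also named after its value was seen. Of 9 genes of peroxisomal chain shortening, the opposite process to elongation, 8 rose and 0 fell. The thiolase gene Acaa1b had a log2 fold change of 3.14 ± 0.16 (SE, adjusted p = 1.17e-05 by limma), and Hsd17b4 and Ehhadh, which encode enzymes of the steps before it, had 0.98 and 0.73.

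Markers of other liver cells moved as well, where 21.8% of all genes rose and 8.38% fell. In bulk tissue, fewer cells of a type and less RNA per cell cannot be told apart. Of 9 stellate cell and fibroblast markers 6 rose, with a summed TPM of 120.7 to 250 in the saline livers and 277.6 to 361.1 in the rMSA livers. Of 5 tested cholangiocyte markers 3 rose, with a sum of 22.4 to 38.3 against 77.0 to 166.7 TPM over 6 genes. Of 10 hepatocyte markers 2 rose and 5 fell, with sums of 93896.2 to 108585.4 and 107545.4 to 114211.4 TPM. Of 9 Kupffer cell and macrophage markers 1 rose and 2 fell (sums 374.6 to 594.7 and 399.7 to 602.1 TPM), of 8 endothelial markers 1 rose (115.4 to 168.6 and 159.5 to 165.1 TPM) and of 4 tested lymphocyte markers 1 rose and 1 fell (5.26 to 13.39 and 5.99 to 9.59 TPM over 7 genes). The only adipocyte marker tested did not pass, and 4 adipocyte markers, with Lep and Plin1 not analysed here, summed to 11.43 to 13.81 TPM with saline and 8.73 to 13.02 TPM with rMSA. Every marker with a row was above 0 in at least 1 liver. The part of these markers in the members' differences was not tested.

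In AML12 hepatocytes the members had other levels and another order. Scd2 was the most abundant in the vehicle cells, at 959.7 ± 99.2 TPM, followed by Fads1 (439.2 ± 13.1), Fads2 (418.7 ± 15.2), Scd1 (345.0 ± 43.6), Elovl1 (102.5 ± 1.6), Elovl5 (59.3 ± 8.1), Elovl7 (13.8 ± 0.8) and Elovl6 (12.8 ± 1.3 TPM, SD, n = 3). In this order, Fads1 and Fads2 overlapped, as did Elovl7 and Elovl6. The 8 members together took 0.0884% to 0.252% of the TPM of a library.

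**Figure D2:**
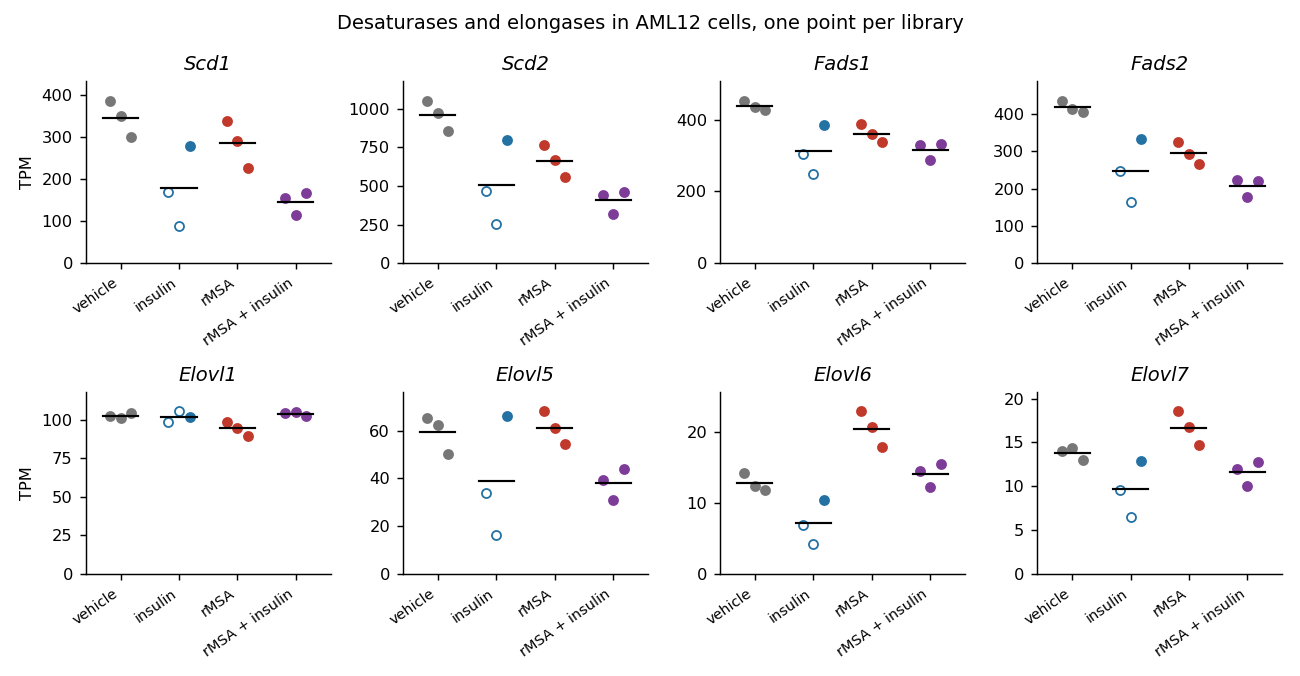
TPM of the 8 members in AML12 hepatocytes, with 1 point for each library, axes from 0 and a line at the mean of 3 libraries. Open blue points are insulin libraries 1 and 2, which lie lowest for 7 of the 8 members within the insulin group, with Elovl1 nearly level everywhere.

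When rMSA was compared with vehicle in AML12 hepatocytes, Elovl6 was higher and Fads2, Fads1 and Scd2 were lower in every rMSA library than in any vehicle library, but none of the 8 members passed the test over all 12 libraries. Among the 10826 genes tested, 5.9% rose, 1.89% fell and 1.81% passed with at least a 2-fold change in either direction. At an unadjusted p under 0.05 there were 2 of 8 members and 18.8% of all genes. All rMSA libraries lay above all vehicle libraries for 25.5% of all genes and below them for 14.2%, beside 2 and 4 of the 8 members. Elovl6 measured 14.25, 12.36 and 11.80 TPM with vehicle and 22.86, 20.61 and 17.81 TPM with rMSA, without overlap. Its log2 fold change was 0.63 ± 0.24 (SE, adjusted p = 0.168 by limma). Fads2 measured 435.7, 414.1 and 406.3 TPM with vehicle and 324.7, 292.6 and 265.0 TPM with rMSA. Its groups were apart, with a log2 fold change of -0.51 ± 0.20 (SE, adjusted p = 0.192 by limma).

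Scd2 measured 1051, 973.2 and 854.5 TPM with vehicle and 762.6, 665.2 and 555.3 TPM with rMSA, and Fads1 measured 453.5, 436.3 and 427.9 against 387.0, 359.4 and 336.6 TPM. Both were lower in all rMSA libraries, with log2 fold changes of -0.54 ± 0.33 and -0.28 ± 0.13 (SE, adjusted p = 0.477 and 0.298 by limma). Elovl1 also lay below vehicle in each rMSA library and Elovl7 above, with log2 fold changes of -0.12 ± 0.06 and 0.25 ± 0.20 (SE, adjusted p = 0.371 and 0.655 by limma). Scd1 measured 386.1, 349.6 and 299.2 TPM with vehicle and 338.4, 290.9 and 224.9 TPM with rMSA, and its groups overlapped, as did those of Elovl5.

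The test over 12 libraries took its spread from all groups. It was widened by the distance between insulin library 3 and insulin libraries 1 and 2, none of which is in the groups compared here. The SE for Elovl6 was 0.241 with all libraries, 0.119 without insulin libraries 1 and 2, and 0.165 without insulin library 3 alone. With only the vehicle and rMSA libraries in the fit, Elovl6 rose (adjusted p = 0.00351 by limma) and Fads2, Scd2 and Fads1 fell (adjusted p = 0.00109, 0.00771 and 0.00842 by limma), that is 1 and 3 of 8 members against 16.9% and 7.39% of all genes. With all other libraries but without insulin libraries 1 and 2 these 4 members also passed (adjusted p = 0.00391, 0.00385, 0.0281 and 0.0162 in the same order by limma). With the replicate number as a block in the vehicle and rMSA libraries alone, Elovl6 and Elovl7 rose and Scd1, Scd2, Elovl1, Fads1 and Fads2 fell, where 33.1% of all genes rose and 15.9% fell. With the block over all 12 libraries none of the 8 passed.

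When rMSA + insulin was compared with insulin, Elovl6 was the only member that passed. It measured 6.92, 4.16 and 10.43 TPM with insulin and 14.48, 12.26 and 15.38 TPM with rMSA + insulin. Every library with both agents was above every insulin library, as for 20.7% of all genes (below for 4.81%), with a log2 fold change of 0.95 ± 0.24 (SE, adjusted p = 0.0213 by limma). Among all genes tested 14.5% rose, 2.73% fell and 2.7% passed with at least a 2-fold change in either direction, and 30.7% had an unadjusted p under 0.05. Scd1 measured 169.8, 87.2 and 277.3 TPM with insulin and 154.9, 114.0 and 167.2 TPM with both, and Scd2 measured 464.0, 250.8 and 795.1 TPM against 438.6, 315.1 and 462.8 TPM. In both genes insulin libraries 1 and 2 were low and library 3 was high, and the groups overlapped. The same spread was seen for Elovl5, at 33.78, 16.31 and 66.22 TPM with insulin and 39.57, 30.89 and 43.79 TPM with both.

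Without insulin libraries 1 and 2 the comparison had 1 insulin library, taken to vary like the other groups, and it then read otherwise. Elovl6 had a log2 fold change of 0.39 ± 0.17 (SE, adjusted p = 0.0999 by limma). Scd2, Scd1, Elovl5 and Fads2 fell, with log2 fold changes of -0.99, -0.95, -0.80 and -0.68 (adjusted p = 0.00902, 0.0173, 0.0157 and 0.00611 by limma). That is 4 of 8 members, where 17% of all genes fell and 13.2% rose. The sign for Elovl5 turned from 0.17 with all libraries. The groups left also differed in how levels changed with transcript length. The log2 slope for each doubling of length was 0.101 in insulin library 3 and -0.158 to -0.019 with both agents. The part of this in these values was not tested. With the length trend removed over all 12 libraries, Scd2 was at -0.43, Scd1 at -0.41, Fads2 at -0.45 and Elovl5 at -0.07. Scd2, Scd1 and Elovl5 then did not pass. Leaving out insulin library 1 alone, or rMSA + insulin library 1 or 3 alone, left Elovl6 above the threshold, at adjusted p values of 0.0621, 0.0734 and 0.0854 by limma. Leaving out insulin library 3 alone had the opposite effect. Elovl6 was then at 1.229 ± 0.185 (SE, adjusted p = 0.000694 by limma) and Elovl7 rose, at 0.494 (adjusted p = 0.0281 by limma). Elovl5 was at 0.657 and did not pass (adjusted p = 0.0516 by limma). Over all alternatives of this comparison 2.5% to 49% of all genes rose. The share without insulin library 3 is not given here, so these rises may not be particular to the members.

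**Figure D3:**
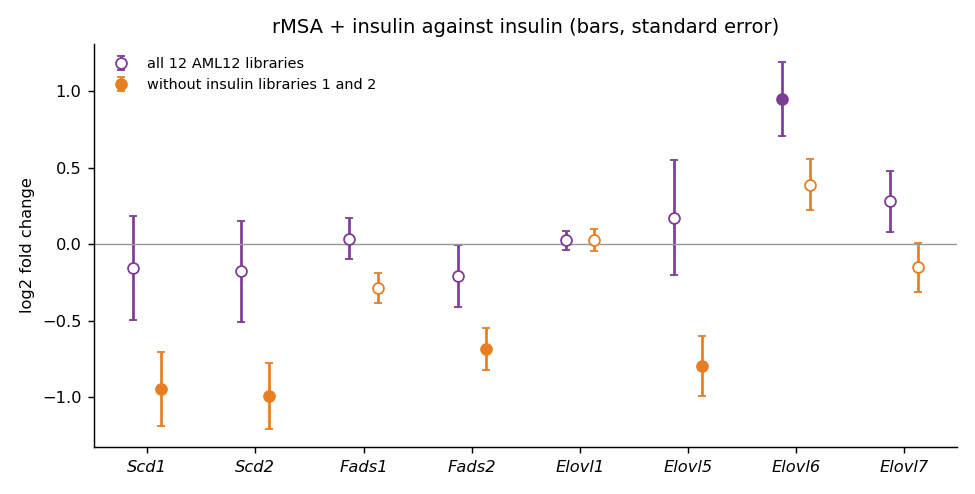
Log2 fold change of the 8 members for rMSA + insulin against insulin, with bars of 1 standard error, over all 12 AML12 libraries (purple) and without insulin libraries 1 and 2 (orange). Filled points passed the test. Elovl6 passes only with all libraries, and Scd1, Scd2, Fads2 and Elovl5 pass, below 0, only without the 2 libraries.

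Insulin against vehicle gave lower means for 7 members and a level one for Elovl1, and no member passed. No gene passed in this comparison (rose 0%, fell 0%, at least 2-fold 0% of 10826), although 3969 genes (36.7%) and 6 of the 8 members had an unadjusted limma p under 0.05. All 3 insulin libraries were below all vehicle libraries for Scd1, Scd2, Fads1, Fads2, Elovl6 and Elovl7, as for 11.8% of all genes (above for 4.35%). The log2 fold changes were -1.09 ± 0.34 for Scd1, -1.08 ± 0.33 for Scd2, -0.83 ± 0.24 for Elovl6 and -0.81 ± 0.21 for Fads2 (SE, each with a limma adjusted p of 0.135). The median over all genes tested was -0.30, and insulin library 3 was above insulin libraries 1 and 2 for every member but Elovl1. With insulin library 3 as the only insulin library, Scd1 was at -0.31, Scd2 at -0.27, Elovl6 at -0.27, Fads2 at -0.33 and Elovl5 at 0.17, none past the threshold. Without insulin library 3, in turn, 7 members fell, where 61.4% of all genes fell and 7.14% rose. Genes with longer transcripts were lower in libraries 1 and 2, with slopes of -0.165 and -0.28 on the log2 scale for each doubling of length. The slopes were -0.158 to -0.019 in the rMSA + insulin libraries and above 0 in the other 7. The longest transcripts of the members ran from 1811 bases for Elovl1 to 5951 bases for Elovl6, and with the length trend removed from each library the log2 fold change was -0.61 for Scd1, -0.55 for Scd2, -0.47 for Fads2 and -0.28 for Elovl6.

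rMSA + insulin against rMSA also gave lower means for 7 members. All libraries with both agents were below all rMSA libraries for 7 members, and above them for Elovl1, against 37.1% of all genes below and 18.6% above, yet no member passed over 12 libraries, where 2.95% of all genes rose, 1.1% fell and 0.49% passed with at least a 2-fold change. At an unadjusted limma p under 0.05 there were 3 of the 8 members and 26.9% of all genes. Scd1 had a log2 fold change of -0.96 ± 0.34 (SE, adjusted p = 0.124 by limma) and Scd2 had -0.71 ± 0.33 (SE, adjusted p = 0.194 by limma). With only these 2 groups in the fit, Scd1, Scd2, Fads2, Elovl5, Elovl6 and Elovl7 fell, with limma adjusted p values of 0.0079 to 0.0197, where 30.7% of all genes fell and 12% rose. With the length trend removed over all 12 libraries, Scd1 was at -0.64, Scd2 at -0.34, Fads2 at -0.33, Elovl7 at -0.23 and Elovl6 at -0.11, and Scd1, Fads2 and Elovl7 passed. The comparisons in AML12 hepatocytes share groups with one another, so their values are not independent.

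The average over the insulin and no-insulin arms gave the firmest result of the cell experiment for Elovl6, with a log2 fold change of 0.79 ± 0.17 (SE, adjusted p = 0.00693 by limma). It passed in all 23 alternatives, with log2 fold changes of 0.51 to 0.93 and adjusted p values of 8.29e-06 to 0.0223. Of all genes 17.9% rose and 4.88% fell in this comparison. No other member passed, and Fads2 was nearest at -0.36 ± 0.15 (SE, adjusted p = 0.105 by limma), with Scd2 at -0.36, Scd1 at -0.22 and Fads1 at -0.12. With each library centred on its median, which moved the median of all genes by -0.16, Fads2, Scd2 and Fads1 fell and Elovl6 still rose. The interaction of rMSA and insulin passed for 0 of the 8 members (0 at an unadjusted limma p under 0.05, against 6.45% of all genes) and for 0.0369% of all genes, with log2 values of 0.03 for Elovl7 to 0.37 for Scd2. Without insulin libraries 1 and 2 none passed either, and the values ran from -0.85 for Elovl5 and -0.66 for Scd1 to 0.15 for Elovl1, with 7 of the 8 below 0.

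**Figure D4:**
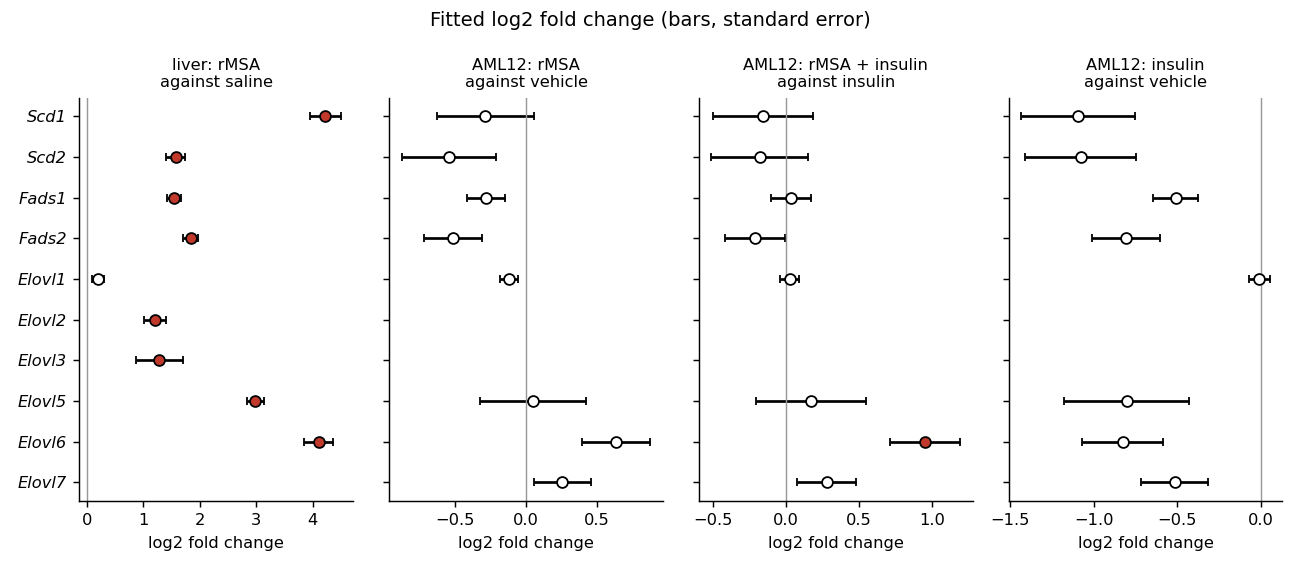
Fitted log2 fold change of each member in 4 comparisons, with bars of 1 standard error and a separate axis range in each panel. Filled points passed at an adjusted p under 0.05, namely 8 members in the liver and Elovl6 for rMSA + insulin against insulin.

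The order of the 4 cell groups was not the same for every member. For Scd2 and Fads2 the vehicle mean was the highest and did not overlap with rMSA, and rMSA, insulin and rMSA + insulin followed, each overlapping with its neighbour. Scd1 had the same order with overlap between all neighbours. Fads1 went from vehicle through rMSA to rMSA + insulin without overlap, and rMSA + insulin overlapped with insulin. Elovl6 was highest with rMSA (20.43 ± 2.53 TPM), followed by rMSA + insulin (14.04 ± 1.61) and vehicle (12.80 ± 1.28), which overlapped, and lowest with insulin (7.17 ± 3.14 TPM, SD, n = 3 each). Elovl7 also had rMSA first, then vehicle, then rMSA + insulin, without overlap, and insulin last with overlap. For Elovl1 only rMSA was apart, below the others, and for Elovl5 all neighbours overlapped.

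Ratios within a library do not depend on its scaling. The ratio of Scd1 to Scd2 was 0.350 to 0.367 with vehicle, 0.348 to 0.366 with insulin and 0.353 to 0.362 with rMSA + insulin, but 0.405 to 0.444 with rMSA alone. The rMSA libraries thus stood above the other 9, insulin libraries 1 and 2 included (exact two-sided permutation p = 0.1 against vehicle, the smallest possible). The ratio of Fads1 to Fads2 was 1.04 to 1.05 with vehicle, 1.19 to 1.27 with rMSA, 1.16 to 1.51 with insulin and 1.48 to 1.62 with rMSA + insulin. It was higher in each treated library than in any vehicle library (exact two-sided permutation p = 0.1 each for insulin and for rMSA, the smallest possible), whereas in the liver it was lower with rMSA.

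**Figure D5:**
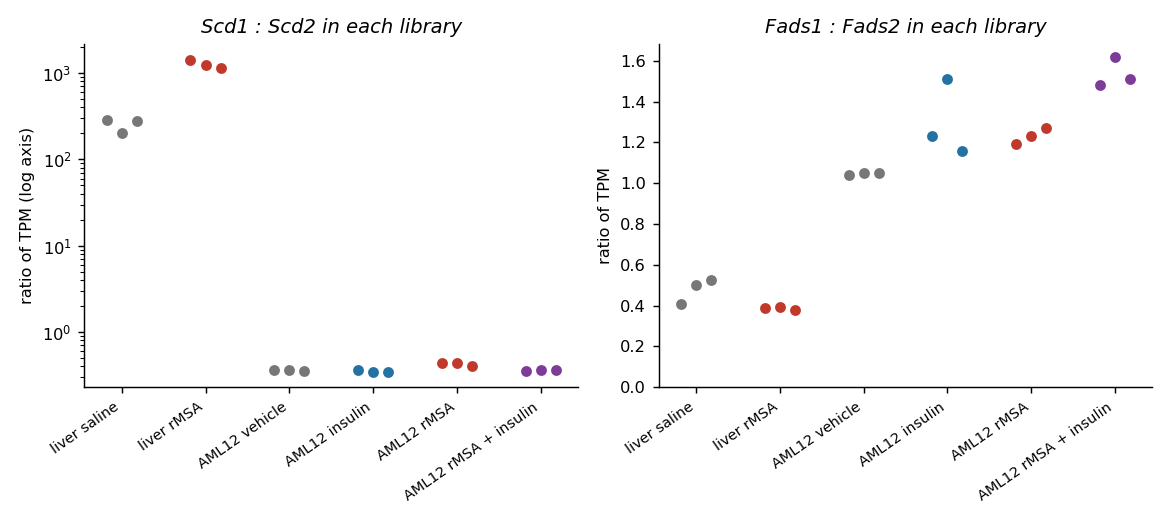
Ratio of Scd1 to Scd2 (left, log axis) and of Fads1 to Fads2 (right, axis from 0) in each of the 18 libraries. Scd1 to Scd2 is 203.8 to 285.8 with saline and 1158.7 to 1433.0 with rMSA in the liver and at most 0.444 in AML12 libraries, and Fads1 to Fads2 is at most 0.525 in the livers and at least 1.04 in AML12 libraries.

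The 12 AML12 libraries share their scaling and include insulin libraries 1 and 2, whose length trend sets them apart. Over all 12, log2 levels of the members without Elovl1 had a median Pearson r of 0.88 over 21 pairs (0.40 to 0.99). The 7 pairs with Elovl1 ran from -0.54 to -0.11. Without insulin libraries 1 and 2 the median of the 21 pairs was 0.77, from -0.14 to 0.99. Elovl6 then had r of 0.75 with Elovl7 but 0.17 with Scd1, -0.05 with Scd2 and -0.11 with Fads2. Among 8807 genes averaging 5 TPM or more, the genes most like Scd1 over the 12 libraries were Kdelr1, Myo6 and Slc16a12 (r = 0.996, 0.996 and 0.995). Those most like Scd2 were Ank, Lpcat3 and Wdfy1 (0.995, 0.995 and 0.993), and those most like Fads2 were Slc12a7, Nedd9 and AA986860 (0.992, 0.989 and 0.987). Elovl6 was most like Zbtb8b, Nmrk1 and Chrnb1 (0.994, 0.992 and 0.991), none of them a member. Without insulin libraries 1 and 2 these 12 pairs had r of 0.972 to 0.997. The pairs were picked over all 12 libraries and not chosen again, so this is no separate check.

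Genes that work with the members were also compared for rMSA against vehicle in AML12 hepatocytes, where 5.9% of all genes rose and 1.89% fell. The dehydratase Hacd2 was 1 of 5 tested partners of the elongation cycle and the only one that rose, from 23.72 ± 1.2 to 30.36 ± 1.1 TPM (mean ± SD, n = 3 each; 0.34 ± 0.09 SE on the log2 scale, adjusted p = 0.0374 by limma). Cyb5r3 was the only one of 5 cytochrome b5 genes (0.28 ± 0.06 SE, adjusted p = 0.0178 by limma), and Acsl5 the only one of 12 genes of acyl-CoA activation and transfer (0.46 ± 0.09 SE, adjusted p = 0.0118 by limma). None of the 11 tested regulators of lipid synthesis and none of the 8 peroxisomal genes passed. Srebf1 went from 134.8 ± 7.8 to 92.5 ± 8.5 TPM (mean ± SD, n = 3 each; -0.54 ± 0.22 SE on the log2 scale, adjusted p = 0.191 by limma), Rxra had 0.35 ± 0.13 and Mlxipl, which encodes ChREBP, had 0.34 ± 0.11 (SE, adjusted p = 0.175 and 0.11 by limma). For rMSA + insulin against insulin, 2 of 4 further desaturases, 1 of 5 elongation partners, 3 of 5 cytochrome b5 genes and 3 of 12 acyl-CoA genes rose, no gene of these lists fell, and no regulator or peroxisomal gene passed, where 14.5% of all genes rose. Without insulin libraries 1 and 2 the same lists, in this order, had 0, 1, 2 and 3 genes that rose and 1, 0, 2 and 3 that fell, and 3 of 11 regulators and 2 of 8 peroxisomal genes fell, where 13.2% of all genes rose and 17% fell. Of the 4 tested hepatocyte markers 1 fell in each of these comparisons, and the sum over the 9 with a row was 293.8 to 368.0 TPM with vehicle and 180.3 to 231.4 TPM with rMSA. The part of this in the members' values was not tested.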

How the data were processed

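RNA was measured in 6 db/db livers and 12 AML12 libraries. Per the submitters' processing notes, the authors used STAR 2.5.2b on GRCm38 after Trimmomatic 0.33, counted with featureCounts (Subread 1.6.0), and deposited TPM values for each library. How TPM was computed, on which annotation and with which strand setting, is not stated there. The labels name both ribosomal RNA depletion and oligo(dT) beads. The authors' test on read counts could not be repeated on TPM, and the depth per library is unknown.

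Values were analysed as log2(TPM + 1). Genes whose mean reached 1 TPM were fitted with limma 3.58.1 in R 4.3.3 (1 mean per group, a mean-variance trend, Benjamini-Hochberg adjustment within a comparison), the liver and AML12 tables separately. The test was checked on simulated data. Members and lists were chosen with earlier results of these data known. Named are all members, up to 4 genes of each other list with the smallest adjusted p in the liver and up to 3 for rMSA against vehicle in AML12. A single gene that this rule names is not reported here. For Scd1, Scd2, Fads2 and Elovl6 the 3 genes of highest Pearson r are named. Alternatives were other pseudocounts, filters and scalings, no trend, a replicate block, only the groups compared, and each library left out in turn. Removing the transcript length trend, the block within 2 groups alone, and the other lists and most-alike genes without insulin libraries 1 and 2, were added after the data were seen. Replicate numbers were taken from the labels. Deviations of same-numbered vehicle and rMSA libraries had correlations of 0.531, 0.139 and 0.577, over the 0.1 set for pairing, although nothing in the labels ties the numbers to a shared culture or day. Other pairs of groups, the livers included, had at least 1 correlation under 0.1, the nearest being insulin with rMSA + insulin at 0.095, 0.789 and 0.801. Motifs were searched in RefSeq promoter windows of GRCm38.p6, and GENCODE vM21 gave exons and transcript lengths.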

Additional observations from a re-analysis of the deposited data

Results flagged for a closer look

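For 3 members, rMSA went with opposite directions in the 2 experiments, every rMSA liver lying above every saline liver and every rMSA library of AML12 hepatocytes below every vehicle library. The log2 fold change was 1.57 in the liver and -0.54 in AML12 for Scd2, 1.84 and -0.51 for Fads2, and 1.54 and -0.28 for Fads1. The difference between the experiments was not tested, because the tables were normalized separately. In AML12, 14.2% of all genes tested were lower in every rMSA library than in any vehicle library, and in the liver 32.7% were higher in every rMSA mouse. None of the 3 AML12 values passed over all 12 libraries, and the 3 fell when only the vehicle and rMSA libraries were fitted.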

How the results depend on the processing

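In the liver 7 of the 8 risen members passed in all 16 alternatives, and Elovl3 in 4. In AML12 hepatocytes the counts of members moved as follows. For rMSA against vehicle (0 risen, 0 fallen), 1 rose and 2 fell with median centring, 1 and 1 with quantile normalization, 1 and 3 with only the groups compared, without insulin libraries 1 and 2 or with the length trend removed, and 2 and 5 with a replicate block in these groups alone. For rMSA + insulin against insulin (1 risen, 0 fallen), 1 fell with median centring, 0 rose with only the groups compared, 0 rose and 4 fell without insulin libraries 1 and 2, and 2 fell with the length trend removed, where Fads1 turned from 0.04 to -0.21. Without insulin libraries 1 and 2 Elovl5 turned to -0.80, and to -0.37 for the average effect. For rMSA + insulin against rMSA (0 and 0), 2 fell with median centring, 3 with quantile normalization, 6 with only the groups compared, 1 rose and 7 fell without insulin libraries 1 and 2, and 3 fell with the length trend removed. For the average effect (1 and 0), 3 fell with median centring, 2 with quantile normalization, 1 with rescaling without the 50 highest genes, 5 without insulin libraries 1 and 2 and 4 with the length trend removed. Leaving out 1 library gave 0 to 1 risen and 0 to 1 fallen for rMSA against vehicle (1 and 1 without insulin library 2 or 3), 0 to 2 and 0 to 1 for rMSA + insulin against insulin (2 risen without insulin library 3, 1 fallen without insulin library 2), 0 to 7 fallen for insulin against vehicle (7 without insulin library 3), 0 to 6 fallen for rMSA + insulin against rMSA (6 without insulin library 2 or 3), and 1 to 2 risen and 0 to 2 fallen for the average effect (2 risen without insulin library 3, 2 fallen without insulin library 2). Over the alternatives the share of all genes that fell ran from 0.961% to 15.9% for rMSA against vehicle, 0.351% to 17% for rMSA + insulin against insulin, 0% to 61.4% for insulin against vehicle, 0.0924% to 36.8% for rMSA + insulin against rMSA and 3.37% to 17% for the average effect. The share that rose ran from 3.57% to 33.1%, 2.5% to 49% and 0% to 7.14% for the first 3 of these. It ran from 0.425% to 14.4% for rMSA + insulin against rMSA and 10.9% to 41.4% for the average effect. For most single settings the share of all genes is not given here, so these counts are not results particular to the members. The cause of these moves was not tested. The replicate block over all libraries changed no call other than Elovl3 in the liver (log2 fold change 1.28, adjusted p = 0.112). Under median centring the median over all genes shifted, on the log2 scale, by -0.14 in the liver, by -0.26 for rMSA + insulin against insulin and by 0.39 for insulin against vehicle. Depth is unknown, so counting error could not be set against any difference.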
